A study of Bos taurus with 6 samples.

Results

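Small RNAs made by RNA polymerase III were examined in fetal bovine serum (FBS), the calf serum added to most cell culture media, after ultracentrifugation (UC). Their reads were listed as 5 of the 15 RNA classes counted against the human genome: SRP, vRNA, Y RNA, 7SK and tRNA. Of these, 4 had values among the 14 classes of the mouse mapping, where SRP was not analysed. The classes were taken by name, as the RNAs that polymerase III is known to transcribe, and not by their level. All samples were FBS (Bos taurus) spun at 100000 g for 24 h, with no untreated serum beside them. The 3 samples named Pellet are RNA of the sedimented, vesicle-enriched material of 40 mL FBS. The 3 samples named Super (supernatants below) are RNA of 20 mL of what stayed above it, concentrated on 3 kDa filters. Neither fraction is pure, since UC also brings down heavy RNA-protein particles and leaves some vesicles in the supernatant. RNA (60 ng) was treated with T4-PNK, a kinase that repairs fragment ends. Only inserts between 15 and 65 nt entered the 50 nt reads, so any RNA longer than 65 nt could appear only as fragments.

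Polymerase III makes short, abundant, untranslated RNAs, most of which work inside a protein particle. SRP RNA (7SL) is the scaffold of the signal recognition particle, which docks ribosomes on the endoplasmic reticulum, and vRNA is the small RNA of the vault, a large hollow ribonucleoprotein of the cytoplasm. Y RNAs are bound by the Ro60 protein and are well known as fragments in blood. 7SK RNA holds the elongation factor P-TEFb inactive in the nucleus, and tRNAs carry amino acids to the ribosome and are cut into stable fragments under stress. Ribosomal 5S and spliceosomal U6 RNA are polymerase III products too, but the tables hold them within rRNA and snRNA. The tRNA class may also include mitochondrial tRNAs, which another polymerase makes: of the 2325 tRNA genes in the cattle annotation used for names, 22 are mitochondrial. These are numbers of cattle genes, while reads were counted against human and mouse, so the mitochondrial share of the reads is not known. Single Y RNAs, vault RNAs or tRNAs were not analysed here, and no sequences of them were used.

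Values are in RPM, the share of all mapped reads of a library. They are not divided by RNA length, so the order of classes below is an order of read shares and not of molecules. Mapped reads, estimated from the smallest step in the miRNA values, ran from 867426 to 6660802 per library in the human mapping. Pellet 1 was the deepest and pellet 3 the shallowest library, so a read stood for 0.150 RPM in the first and for 1.15 RPM in the last of these. The pellets also differed in other classes. Pellet 3 had more rRNA (136896 RPM) than pellets 1 and 2 (110679 and 91728 RPM) and less snoRNA (31513 RPM) than pellets 1 and 2 (63867 and 53694 RPM). Pellet 1 had more snRNA (7997 RPM) than pellets 2 and 3 (4196 and 3993 RPM) and more miRNA (130551 RPM) than pellets 2 and 3 (78019 and 63901 RPM). The fractions were set against each other with limma, on log2(RPM + 1) and over all classes of a table, with Benjamini-Hochberg adjustment. The study's text speaks of different batches of FBS and its figure legend of aliquots, and any p-value given here reflects the spread of these libraries alone, which could be technical. A two-sided exact permutation test of 3 libraries against 3 cannot give a p under 0.10.

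Together the 5 classes took 4.79%, 6.86% and 1.07% of the reads mapped to human in pellets 1, 2 and 3, against 3.70%, 3.47% and 2.75% in supernatants 1, 2 and 3. Y RNA made up most of this, 73.3% to 95.8% of the 5 classes in the pellets and 91.5% to 92.9% in the supernatants. In the human mapping, SRP and vRNA rose in the pellets by limma, none of the 5 fell, and Y RNA, 7SK and tRNA did not pass. In the mouse mapping, vRNA and tRNA rose, none of the 4 fell, and Y RNA and 7SK did not pass. Among all classes, 20.0% of 15 rose in the human and 21.4% of 14 in the mouse mapping, with a median log2 fold change over all classes of -0.11 and -0.084. The median was 0.26 over the 5 members of the human mapping and 2.31 over the 4 of the mouse mapping, which lack SRP. The mouse median lies between tRNA (2.80) and 7SK (1.82), which did not pass, while mouse Y RNA stood at -0.15. Fractions without overlap were seen for 3 of the 5 classes in the human mapping, where 60.0% of all classes had none, and for 2 of the 4 in the mouse mapping, where 50.0% had none.

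**Figure D1:**
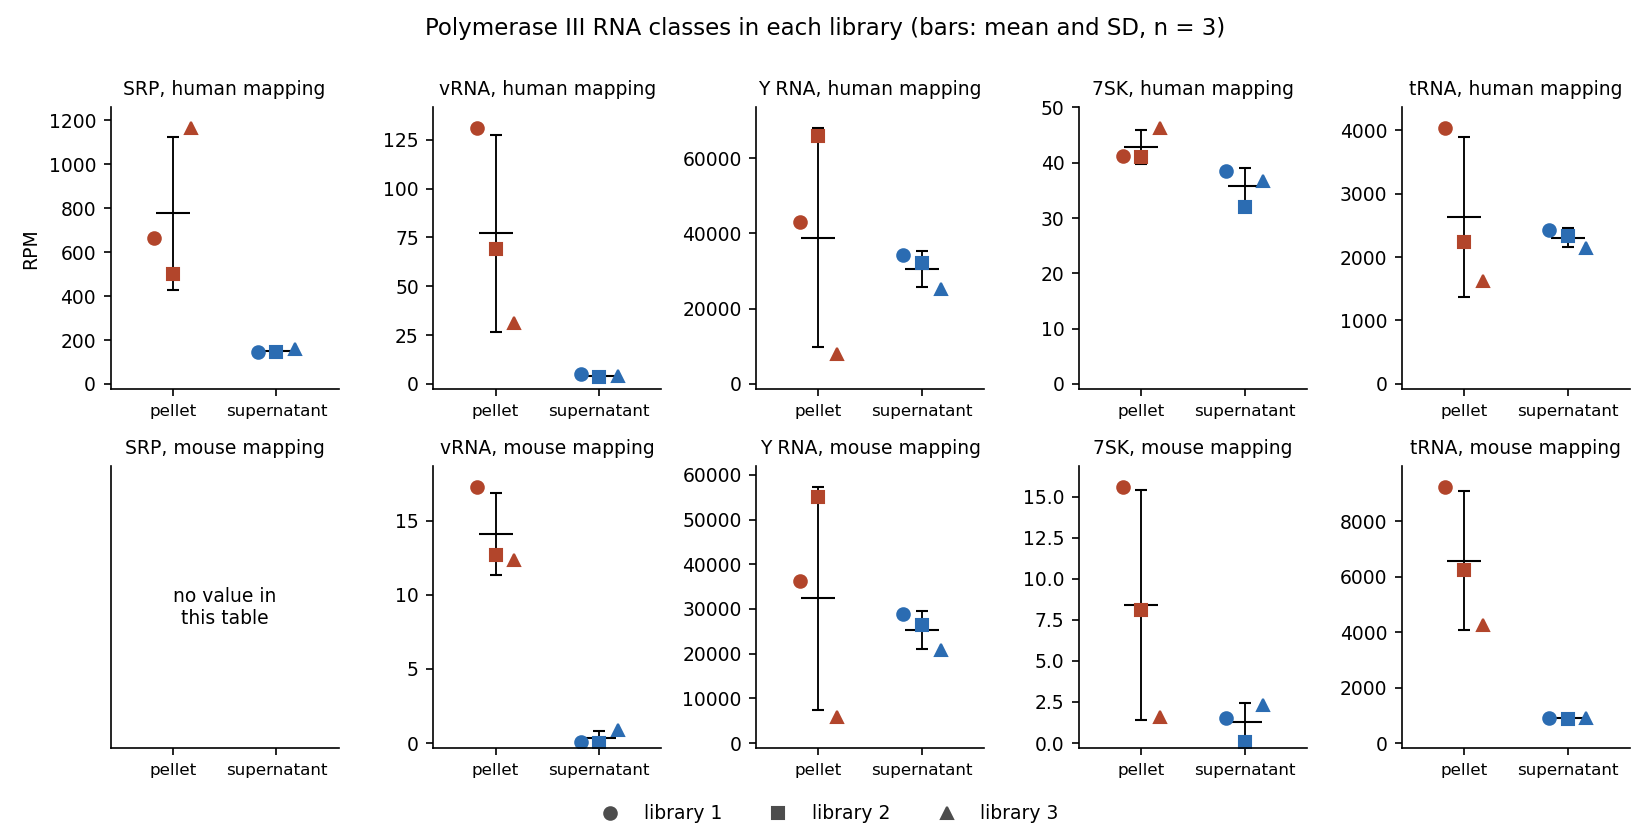
RPM (y axis, linear, from 0) of each polymerase III class in the pellet and supernatant libraries (x axis), human mapping above and mouse mapping below. Symbols are single libraries, and black bars give the mean and SD (n = 3), cut at 0. The SRP and vRNA pellets lie above every supernatant in the human mapping, as do the vRNA and tRNA pellets in the mouse mapping, and Y RNA spans 7852 to 65719 RPM within the pellets alone.

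SRP RNA, the scaffold of the signal recognition particle, stood at 663, 501 and 1166 RPM in pellets 1, 2 and 3, against 145, 148 and 157 RPM in supernatants 1, 2 and 3. Every pellet was above every supernatant, and the lowest pellet was 3.18 times the highest supernatant. The supernatants were nearly alike, with a coefficient of variation of 4.44%, while the pellets varied by 44.7%. The pellet mean was 777 ± 347 RPM, or 5.18 times the supernatant mean of 149.8 ± 6.65 RPM (SD, n = 3 each). On the log2 scale SRP rose by 2.28 ± 0.32 (SE, limma adjusted p = 0.00271). Pellet 3, the library with the largest rRNA share, also had the most SRP. Of the other classes, rRNA followed SRP most closely over the 6 libraries, with a root mean square difference of 0.42 between their mean-centred log2 profiles, and miRNA came next. Both classes ran from pellet 3 (highest) over pellet 1 to pellet 2 (lowest). In the supernatants they differed: rRNA was highest in supernatant 1 (43337 RPM), where SRP was lowest (145 RPM). The ratio of SRP to rRNA was also higher in every pellet than in every supernatant. SRP RNA works beside translating ribosomes, whose rRNA is the bulk of cellular RNA, but a shared source of SRP and rRNA reads was not tested.

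Vault RNA showed the largest log2 fold change of any class in both mappings on RPM + 1, a rank it lost to tRNA in the mouse mapping with a pseudocount of 10 RPM. It stood at 131, 69.1 and 31.2 RPM in pellets 1, 2 and 3, against 4.96, 3.43 and 4.07 RPM in supernatants 1, 2 and 3 of the human mapping. The lowest pellet was 6.30 times the highest supernatant, and vRNA rose by 3.71 ± 0.52 on the log2 scale (SE, limma adjusted p = 0.00271). With a pseudocount of 10 RPM the log2 fold change was 2.45 and still passed (adjusted p = 0.00986). The pellet mean of 77.2 ± 50.4 RPM became 50.2 RPM without pellet 1, and the supernatant mean was 4.15 ± 0.768 RPM (SD, n = 3 each). These levels rest on about 873, 108 and 27.1 reads in pellets 1, 2 and 3, and on 26.6, 13.1 and 12.5 reads in supernatants 1, 2 and 3. The supernatant level thus rests on few reads, and vRNA of pellet 3 on little more than that of supernatant 1.

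In the mouse mapping vRNA was rarer, at 17.3, 12.7 and 12.3 RPM in pellets 1, 2 and 3, against 0.0710, 0 and 0.877 RPM in supernatants 1, 2 and 3. No supernatant held more than 3.01 estimated reads, and supernatant 2, listed at 0, allows up to 0.694 RPM by a floor of 3 counts. The pellets were closely alike here, differing by 1.40 times at most. vRNA rose by 3.57 ± 0.29 on the log2 scale (SE, limma adjusted p = 0.00034). With pseudocounts of 0.1 and 10 RPM its log2 fold change was 5.78 and 1.22 (limma adjusted p = 0.00649 and 0.00065). Its direction held, while its size was set by the pseudocount and its adjusted p moved with it. Outside the polymerase III classes, miRNA was nearest to vRNA in the mouse (1.31 log2 units) and rRNA in the human mapping (1.27), neither of them close. Without supernatant 3 the supernatant mean of 0.316 RPM became 0.0355 RPM.

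Y RNA was by far the largest of the 5 classes and, in the human mapping, the most variable among the pellets. Its level was 43028, 65719 and 7852 RPM in pellets 1, 2 and 3, against 34334, 32139 and 25141 RPM in supernatants 1, 2 and 3. Pellets 1 and 2 lay above every supernatant and pellet 3 below every one, so that the fractions overlapped. The pellets differed by 8.37 times among themselves, the widest spread of the 5, and the supernatants by 1.37 times. Pellets averaged 38866 ± 29157 RPM and supernatants 30538 ± 4801 RPM (SD, n = 3 each), and the log2 fold change of -0.11 had a 95% interval from -2.13 to 1.92 (limma adjusted p = 0.940). The interval leaves room for a several-fold change either way. Without pellet 3, Y RNA passed as higher in the pellets (log2 fold change 0.81, limma adjusted p = 0.0397), and in the mouse mapping likewise (0.84, adjusted p = 0.0356). Without pellet 2 the log2 fold change was -0.72 (human) and -0.79 (mouse) and did not pass, and the human pellet mean was 25440 RPM.

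The low Y RNA of pellet 3 was seen in both mappings, at 36297, 55122 and 5768 RPM in pellets 1, 2 and 3 of the mouse mapping, against 28855, 26323 and 20707 RPM in supernatants 1, 2 and 3. The nearest profile over the 6 libraries was that of snoRNA, the guides of rRNA modification. Its root mean square difference from Y RNA was 0.73 (human) and 0.78 (mouse) log2 units. Like Y RNA, snoRNA was lowest in pellet 3, but it was not highest in pellet 2. It stood at 63867, 53694 and 31513 RPM in pellets 1, 2 and 3 of the human mapping, and pellet 1 also led the pellets in the mouse mapping. Repetitive elements followed at 0.86 and 0.79. Pellet 3 held about 6811 human-mapped Y RNA reads.

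7SK RNA was the steadiest of the 5 over the 6 libraries of the human mapping. It stood at 41.2, 41.1 and 46.3 RPM in pellets 1, 2 and 3, against 38.5, 31.9 and 36.7 RPM in supernatants 1, 2 and 3. The fractions did not overlap, yet the lowest pellet exceeded the highest supernatant by a factor of 1.07 only. The log2 fold change of 0.26 had a 95% interval from -0.029 to 0.55 and did not pass (limma adjusted p = 0.146, exact permutation p = 0.10). As centred log-ratios it was -0.15. After rRNA and miRNA reads were taken out of the total it was 0.44 and passed (adjusted p = 0.0426). The classes most like 7SK were the class called others (0.19 log2 units) and antisense RNA (0.24), which also varied little.

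In the mouse mapping 7SK was near the limit of detection in the supernatants and uneven in the pellets. Its values were 15.6, 8.08 and 1.57 RPM in pellets 1, 2 and 3, against 1.53, 0.0463 and 2.33 RPM in supernatants 1, 2 and 3. Only pellet 1, with about 114 reads, was well measured, since pellet 2 held about 13.2 reads and no other library more than 9.14. Pellet 3 lay within the supernatants. The log2 fold change of 1.82 had a 95% interval from -0.14 to 3.77 and did not pass (limma adjusted p = 0.158), while without pellet 3 it was 2.57 and passed (adjusted p = 0.00967). Outside the polymerase III classes, miRNA had the nearest profile (0.85 log2 units).

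Fragments of tRNA gave unlike pictures in the mappings. Against the human genome they stood at 4036, 2238 and 1619 RPM in pellets 1, 2 and 3, and at 2428, 2339 and 2137 RPM in supernatants 1, 2 and 3. Pellet 1 lay above the supernatants, pellet 3 below them and pellet 2 among them. The log2 fold change was 0.090 with a 95% interval from -0.76 to 0.94 (limma adjusted p = 0.926), and without pellet 1 it was -0.27. As centred log-ratios it was -0.32. The human tRNA profile over the 6 libraries was closest to that of snRNA, the RNAs of the spliceosome, with a root mean square difference of 0.15 log2 units, and then to miRNA (0.29).

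Against the mouse genome tRNA stood at 9237, 6245 and 4248 RPM in pellets 1, 2 and 3, and at 916, 874 and 902 RPM in supernatants 1, 2 and 3. Every pellet exceeded every supernatant, the lowest pellet by 4.64 times. The supernatants were within 1.05 times of each other, the tightest agreement of any member in either fraction. tRNA rose by 2.80 ± 0.29 on the log2 scale (SE, limma adjusted p = 0.000658), with at least 3098 estimated reads behind each value. The nearest profile was that of vRNA, at 0.52 log2 units, and outside the polymerase III classes that of miRNA, at 0.88.

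**Figure D2:**
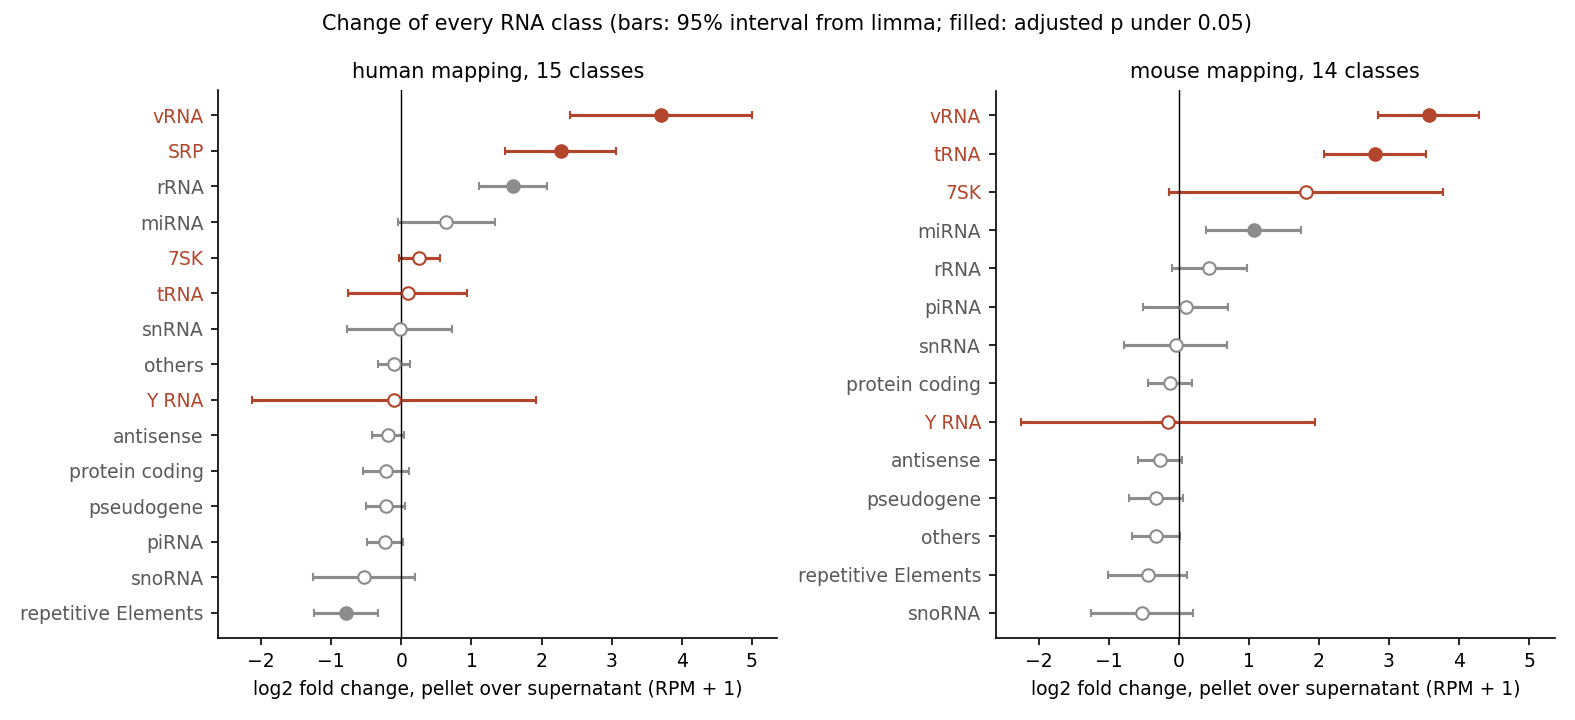
Log2 fold change of pellet over supernatant (x axis, on RPM + 1) for each RNA class (y axis), with 95% intervals from limma, for the human (left) and mouse (right) mapping. Polymerase III classes are in red and filled points have an adjusted p under 0.05. vRNA leads both panels, tRNA lies at 0.090 in the human and 2.80 in the mouse mapping, and Y RNA has the widest interval of the human panel.

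Among the pellets, tRNA in both mappings and vRNA in the human mapping ran from pellet 1 (highest) over pellet 2 to pellet 3 (lowest). So did 7SK in the mouse mapping. The estimated mapped reads ran in the same order, as did the miRNA, snRNA and snoRNA classes in both mappings, so the order was not particular to polymerase III classes. Mouse vRNA was highest in pellet 1, but pellets 2 and 3 (12.7 and 12.3 RPM) could not be ordered. A read stood for 0.610 RPM in pellet 2 and 1.05 RPM in pellet 3 of the mouse mapping. SRP was highest in pellet 3 and Y RNA in pellet 2, so the 5 classes did not follow a single order. The part of library depth in these orders was not tested. With 3 pellets, no correlation was computed.

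The total of mapped reads cancels in a ratio of classes from the same library, so ratios between all classes were formed, 105 in the human and 91 in the mouse mapping. Of the 10 ratios between polymerase III classes in the human mapping, 6 separated the fractions without overlap, where 56.2% of all ratios did so. In the mouse mapping it was 4 of 6, where 48.4% of all ratios did so. Ratios that share a class are not independent. The exact permutation p of each separating ratio was 0.10, with Benjamini-Hochberg values of 0.178 (human) and 0.207 (mouse) over all ratios, so none passed and the separation is given as a description.

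The 6 separating ratios of the human mapping were those of SRP or vRNA to Y RNA, 7SK or tRNA. Per 7SK read there were 16.1, 12.2 and 25.2 SRP reads in pellets 1, 2 and 3, against 3.75, 4.63 and 4.29 in supernatants 1, 2 and 3. This ratio was 4.05 times higher in the pellets by the mean of log2 ratios, and all pellets were above all supernatants. Per 7SK read there were 3.19, 1.68 and 0.674 vRNA reads in the pellets, against 0.129, 0.107 and 0.111 in the supernatants. vRNA was thus the more abundant of the pair in pellets 1 and 2, and 7SK in pellet 3 and in all supernatants. By the mean of log2 ratios on RPM + 1, which makes the change of a rare class smaller, vRNA to 7SK was 10.9-fold higher in the pellets. The vRNA ratios depended on the pseudocount: with 10 RPM the log2 differences were 2.24 to 7SK, 2.36 to tRNA and 2.56 to Y RNA.

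Relative to tRNA, SRP was 4.55-fold and vRNA 12.3-fold higher in the pellets on RPM + 1, again without overlap. For each SRP read there were 6.09, 4.47 and 1.39 tRNA reads in pellets 1, 2 and 3, against 16.8, 15.8 and 13.6 in supernatants 1, 2 and 3. For each SRP read there were 64.9, 131 and 6.73 Y RNA reads in the pellets, against 238, 218 and 160 in the supernatants. The SRP to Y RNA change of 5.22-fold rested in part on pellet 3, whose Y RNA was low: its log2 difference of 2.38 became 1.12 without that library and 3.27 without pellet 2. That of SRP to tRNA, 2.19, became 1.55 without pellet 3, and that of vRNA to 7SK, 3.45, became 4.03. Relative to Y RNA, vRNA was 14.1-fold higher in the pellets on RPM + 1, and its log2 difference of 3.82 became 4.39 without pellet 2.

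The other 4 ratios overlapped. SRP exceeded vRNA 5.06, 7.24 and 37.4 times in pellets 1, 2 and 3, against 29.2, 43.1 and 38.6 times in supernatants 1, 2 and 3, so pellet 3 had the balance of the supernatants and the other pellets had not. The log2 difference of this ratio was -1.43 (exact permutation p = 0.40), -2.30 without pellet 3, -0.87 without pellet 1 and -0.24 with a pseudocount of 10 RPM. Y RNA exceeded tRNA 10.7, 29.4 and 4.85 times in the pellets, against 14.1, 13.7 and 11.8 times in the supernatants. Y RNA to 7SK and 7SK to tRNA likewise showed pellets on both sides of the supernatants, with log2 differences of -0.37 and 0.17. Single pellets decided these values: without pellet 3 Y RNA to tRNA, Y RNA to 7SK and 7SK to tRNA were 0.43, 0.61 and -0.19. Y RNA to tRNA was -0.87 without pellet 2. Y RNA to 7SK was -1.01 without pellet 2 and -0.70 without pellet 1, and 7SK to tRNA was 0.56 without pellet 1.

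**Figure D3:**
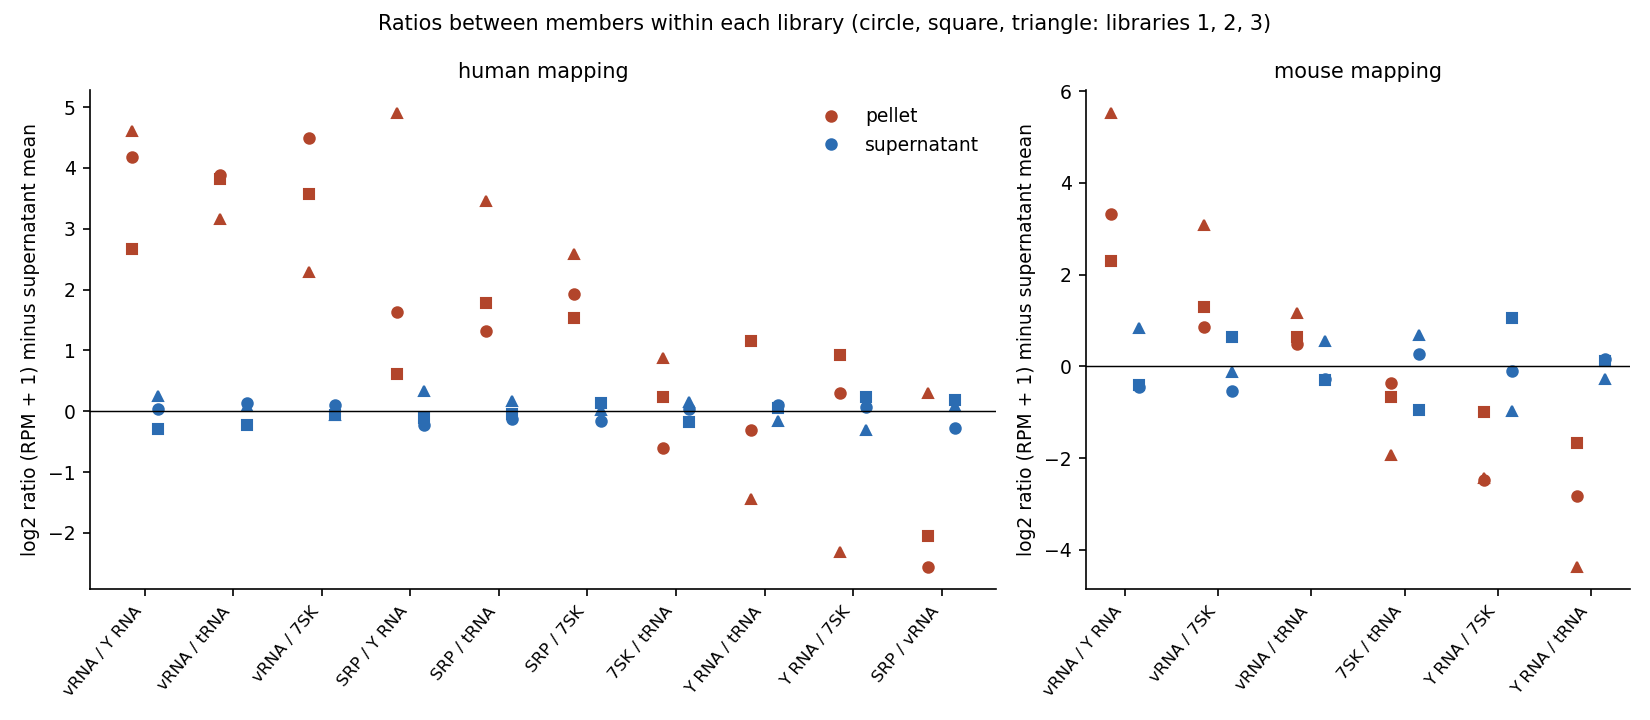
Log2 ratio of each pair of polymerase III classes (x axis) in each library, on RPM + 1, minus the supernatant mean of that ratio (y axis), human mapping left and mouse mapping right. In the human panel the ratios of vRNA or SRP to Y RNA, 7SK or tRNA lie above every supernatant in all 3 pellets, while the last 4 ratios overlap.

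Leaving Y RNA aside, the other 4 classes of the human mapping summed to 4871, 2849 and 2863 RPM in pellets 1, 2 and 3, against 2616, 2522 and 2335 RPM in supernatants 1, 2 and 3. Within this sum the make-up was uneven. tRNA held 82.9%, 78.6% and 56.5% in the pellets, against 92.8%, 92.7% and 91.5% in the supernatants. SRP held 13.6%, 17.6% and 40.7% in the pellets, against 5.52%, 5.86% and 6.74% in the supernatants. vRNA held 2.69%, 2.43% and 1.09% in the pellets, against 0.189%, 0.136% and 0.174% in the supernatants. All of these shares separated the fractions, tRNA downward and SRP and vRNA upward in the pellets. Shares of one sum are tied, so the lower tRNA share is no separate result: the tRNA level itself overlapped between the fractions.

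In the mouse mapping the separating ratios were Y RNA to tRNA, vRNA to Y RNA, vRNA to 7SK and Y RNA to 7SK. Y RNA exceeded tRNA 3.93, 8.83 and 1.36 times in pellets 1, 2 and 3, against 31.5, 30.1 and 22.9 times in supernatants 1, 2 and 3. The log2 difference was -2.95, and -2.24 without pellet 3 or -3.59 without pellet 2. In the human mapping the log2 difference of the same ratio was -0.20 and the fractions overlapped. The 3 other separating ratios rest on 7SK or vRNA at a few reads in the supernatants, and their sizes changed with the pseudocount.

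The same libraries could be compared class by class between the mappings. Mapped reads were 1.04 to 1.13 times as many for mouse as for human. For tRNA, the mouse level was 2.29, 2.79 and 2.62 times the human level in pellets 1, 2 and 3, but 0.377, 0.374 and 0.422 times in supernatants 1, 2 and 3. Mouse mapping thus gave more tRNA in every pellet and less in every supernatant. The pellet to supernatant change of tRNA differed between mappings by -2.71 ± 0.098 log2 units (human minus mouse, SE, limma adjusted p = 7.37e-06). Of the 4 members present in both tables tRNA alone passed this test, which 21.4% of the 14 classes passed.

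Y RNA was nearly indifferent to the genome. Its mouse level was 0.844, 0.839 and 0.735 times the human level in pellets 1, 2 and 3, and 0.840, 0.819 and 0.824 times in supernatants 1, 2 and 3. Over the 6 libraries this quotient varied by 1.15 times, the third smallest of the 13 classes with reads in every library. The change of Y RNA between fractions differed by 0.042 log2 units between mappings, with a 95% interval from -0.14 to 0.22 (limma adjusted p = 0.742). The uneven Y RNA of the pellets was hence as wide in either mapping, 8.37 times in human and 9.56 times in mouse.

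Vault and 7SK RNA were counted far less often against mouse. The mouse level of vRNA was 0.132, 0.183 and 0.395 times the human level in pellets 1, 2 and 3, and 0.0143, 0 and 0.215 times in supernatants 1, 2 and 3. For vRNA the difference of the changes was 0.14 log2 units with a 95% interval from -1.08 to 1.36 (limma adjusted p = 0.861), but -1.81 with a pseudocount of 0.1 RPM and 1.23, which passed, with 10 RPM. The quotient for 7SK was 0.379, 0.197 and 0.0339 in the pellets, against 0.0397, 0.00145 and 0.0635 in the supernatants. Its highest value was 261 times the lowest, the widest spread of the 13 classes. The lowest, of supernatant 2, rests on 0.2 estimated mouse reads, so the spread is in part one of very low counts. For 7SK the difference of the changes was -1.56 log2 units, with a 95% interval from -3.63 to 0.51 (limma adjusted p = 0.296). Without pellet 3 this difference was -2.37 and passed (adjusted p = 0.0422). 7SK thus was the steadiest of the 5 classes in the human mapping. It was among the least steady in the mouse mapping, where libraries other than pellet 1 held few reads.

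**Figure D4:**
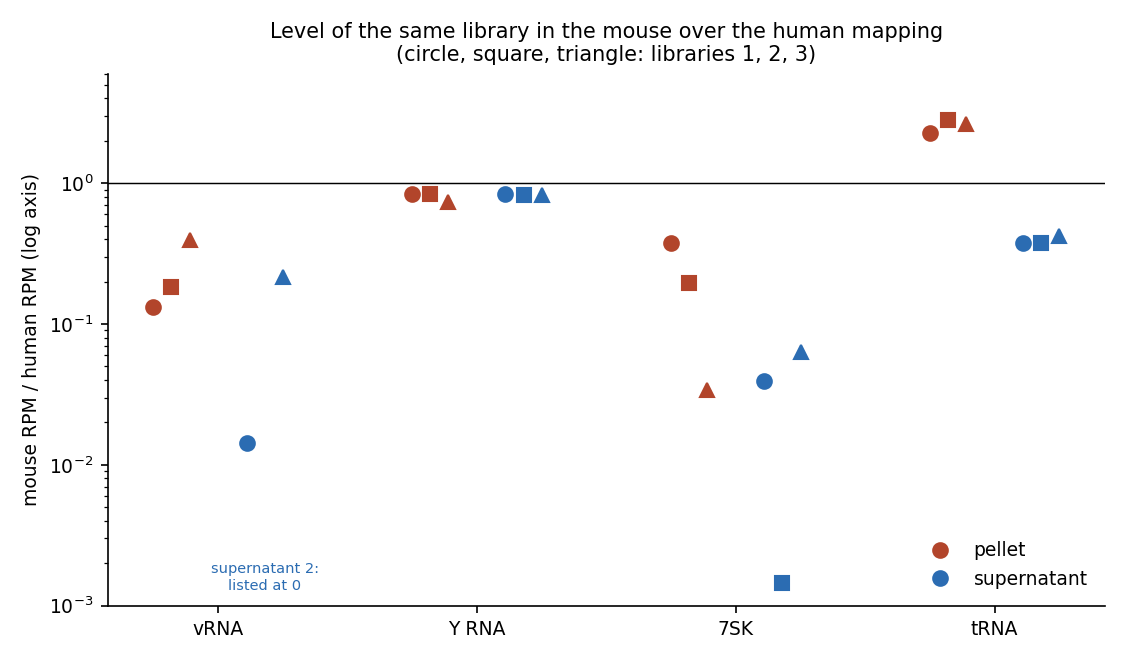
Mouse RPM divided by human RPM of the same library (y axis, log scale) for the 4 polymerase III classes with values in both tables (x axis). Symbols are libraries and the line marks equal levels. Y RNA stays between 0.735 and 0.844 in all libraries, tRNA lies above 1 in the pellets and below 1 in the supernatants, and vRNA of supernatant 2 is listed at 0.

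Fragments of polymerase III RNAs can also be listed as miRNAs, since some miRNA names resemble tRNA, Y RNA, vault or 7SL and Alu sequences. Of a list of 23 such numbers, 7 names were present among 502 human and 2 among 395 mouse miRNAs. The human ones reached 2.93 RPM at most (hsa-miR-1260a, a tRNA-like name, in pellet 1) and none had at least 1 RPM in 3 libraries. mmu-miR-1983, which resembles a tRNA fragment, stood at 20.5, 2.03 and 1.05 RPM in pellets 1, 2 and 3 and was listed at 0 in all 3 supernatants. It came to about 150.5 reads in pellet 1, 3.33 in pellet 2 and a single read in pellet 3. It passed the filter on low values through the pellets alone, so a test of it would follow from the filter and none is given. Like mouse-mapped tRNA, it was highest in pellet 1 and lowest in pellet 3.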

How the data were processed

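RNA of 3 pellets and 3 supernatants of FBS was sequenced as small RNA libraries. The authors deposited RPM values, normalized to the mapped reads of each library, per RNA class and per miRNA, for hg19 (exceRpt small RNA-seq pipeline) and for mm10. For mm10, the pipeline was not given in the sources used here. All columns matched a sample, and no libraries were pooled.

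Classes were tested on log2(RPM + 1) by limma 3.58.1 in R 4.3.3 over all 15 (human) or 14 (mouse) classes, two-sided, called at an adjusted p under 0.05. The change between mappings was tested by limma on the difference of log2(RPM + 1) per library. Single values and ratios were tested by exact permutation over the 20 relabellings (Python 3.11.15, scipy 1.17.1, numpy 2.4.6, figures with matplotlib 3.10.9). On this scale, changes of rare classes come out too small. The filter on miRNAs was 1 RPM or more in 3 or more libraries.

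In each library, 1 read was taken to be worth the smallest value that 6 or more miRNAs had in common. Within 0.02 reads, 32.5% to 59.6% of miRNA values were whole, so no count model was used, and read numbers are estimates. Steps were tested on simulated data. Members and lists were chosen with earlier results of these data known. All members are named, with rRNA, snRNA, snoRNA, miRNA and the 2 classes of nearest profile per member, and listed miRNAs past the filter. hsa-miR-1260a was named after its values were seen. Cattle gene types came from the RefSeq table of ARS-UCD2.0.

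Same-numbered pellets and supernatants deviated together from their fraction means over the human classes (correlations 0.40, 0.37 and 0.73 for numbers 1, 2 and 3), and over the mouse classes for number 1 only (0.46, 0.0040 and -0.067). The labels give no pairing, and a fit with the replicate number as a block was one of the alternatives, beside other pseudocounts, scalings, a filter, a variance trend and leaving out each library.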

Additional observations from a re-analysis of the deposited data

Results flagged for a closer look

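The change of tRNA between fractions differed between the mappings of the same libraries, by -2.71 log2 units (human minus mouse, limma adjusted p = 7.37e-06). The log2 fold change was 0.090 in the human and 2.80 in the mouse mapping, and the mouse to human quotient of every pellet was above that of every supernatant. Over the alternatives the difference ran from -2.79 to -2.44 and passed in each. No formal test for an outlying library was run in groups of 3.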

How the results depend on the processing

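SRP and vRNA (human) and vRNA and tRNA (mouse) kept their direction and passed limma under every alternative in which they were tested. With the replicate number as a block no member's call changed (SRP 2.28, adjusted p = 0.00389), and 2 instead of 3 classes differed between mappings. As centred log-ratios, which moved the median of all classes to -0.51 (human) and -0.63 (mouse), 8 human and 7 mouse classes passed, human 7SK and tRNA turned to -0.15 and -0.32, and 8 classes differed between mappings, Y RNA among them (0.31). Without rRNA and miRNA in the total, Y RNA turned to 0.082 (human) and 0.027 (mouse), and human 7SK passed (0.44). Over classes of at least 1000 RPM, which left SRP, vRNA and 7SK untested, 2 human classes passed, with neither Y RNA nor tRNA among them. With a pseudocount of 0.1 RPM the difference between mappings of vRNA was -1.81, and with 10 RPM it was 1.23 and passed, with 5 classes in all. The cause was not tested.

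Leaving out each library in turn gave ranges of the log2 fold change. Human Y RNA ran from -0.72 to 0.81 and tRNA from -0.27 to 0.39. Mouse Y RNA ran from -0.79 to 0.84 and 7SK from 1.23 to 2.57, with 2 to 5 classes passing. Between mappings, vRNA ran from -0.20 to 0.59, Y RNA from -0.023 to 0.076 and 7SK from -2.37 to -0.94 (passing without pellet 3), with 2 to 6 classes passing. In the human mapping 6 to 8 of 10 member ratios then separated the fractions. Leaving out a library cannot undo a separation, so this count could not fall below the 6 of all libraries. With all libraries 56.2% of all ratios separated. The share of all ratios with a library left out is not given here, so the count is not read as a trait of the members. Depth limits mouse vRNA and 7SK in the supernatants, at a few reads or fewer.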
